A study of Mus musculus with 8 samples.

Results

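Chek1, Clspn, Tipin, Dtl, Gmnn and Dscc1 encode proteins that watch over DNA replication or control how often an origin is used. In splenic CD11b+Gr1+ cells of tumor-bearing mice all 6 transcripts were lower in the CD38high than in the CD38low fraction, by 2.13-fold (Gmnn) to 3.67-fold (Tipin), with a median log2 difference of -1.54. They are 6 of the 482 genes named in the authors' deposited list of changed probesets, picked by symbol for their part in the replication checkpoint, the control of origin licensing or the loading of the sliding clamp for cohesion. They were chosen by their difference between the same 8 arrays described here, so their values are a description. Where calls of a fit over all probesets are counted for them, the counts come from the values that chose the genes and support nothing. The list of changed probesets has 498 of the 23332 probesets measured, 124 higher and 374 lower in CD38high cells.

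The CD38high and the CD38low fraction were sorted from spleens. The animals were L2-Cre;p120f/f, 12 months of age, bore esophageal tumors and had a mixed C57BL/6x129 background. Cells with both CD11b and Gr1 on their surface are called myeloid-derived suppressor cells in mice, and CD38 is a cell surface enzyme that breaks down NAD. Each fraction had 4 Affymetrix arrays, of mouse 1, mouse 2, mouse 3 and 1 pool of splenocytes from 3 mice, and each mouse, and the pool, gave a pair of fractions. All arrays carried the same genotype, in which the L2 promoter, known for its activity in the squamous epithelium of mouth and esophagus, drives Cre against a floxed gene for p120-catenin, so neither the tumor nor the genotype was a variable. The labels do not say whether the pooled mice were others than mice 1 to 3.

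Before a cell enters S phase, the origin recognition complex, Cdc6 and Cdt1 load the MCM helicase on origins, a step called licensing. Geminin (Gmnn) binds Cdt1 and blocks a further round of loading, while Dtl, also known as Cdt2, directs a CUL4 ubiquitin ligase to Cdt1 on chromatin, so that Cdt1 is destroyed once replication has begun. At the fork, Tipin and its partner Timeless keep the helicase and the polymerases together, and Tipin helps to bring claspin (Clspn) to stalled forks, where claspin lets the kinase ATR activate CHK1, the product of Chek1. Dscc1 belongs, with Chtf8 and Chtf18, to an alternative clamp loader that places PCNA on DNA during the joining of sister chromatids. In bone marrow and spleen, myeloid precursors divide, and neutrophils stop dividing as they mature.

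The promoters of those of the 6 genes with an entry in the RefSeq table of build GRCm38.p6 are shown. Entries were found for 3 of the 6 genes, Dtl, Clspn and Chek1, 1 window of 300 bases each, from 250 bases before to 50 bases after the transcript start. Searched on both strands, the words for E2F factors, which drive many S phase genes, were TTTCCCGC, TTTCGCGC, TTTGCCGC and TTTGGCGC, and a shorter form without the first T was searched too. The word for NF-Y was CCAAT, and the word for the cell cycle homology region (CHR) was TTTGAA on either strand or its palindromic form TTTAAA. The Dtl and Clspn stretches run from base -150 to base 30, counted from the transcript start at base 1 with no base 0, and the Chek1 stretch from base 21 to base 50, all 5′ to 3′ on the gene's strand. Capitals mark the E2F words in either form and the NF-Y word.
Dtl (chr1:191575515-191575694, minus strand): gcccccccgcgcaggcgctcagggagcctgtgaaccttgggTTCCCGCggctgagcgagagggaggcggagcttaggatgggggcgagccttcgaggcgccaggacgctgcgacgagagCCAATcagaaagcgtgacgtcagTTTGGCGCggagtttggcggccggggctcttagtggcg
Clspn (chr4:126556830-126557009, plus strand): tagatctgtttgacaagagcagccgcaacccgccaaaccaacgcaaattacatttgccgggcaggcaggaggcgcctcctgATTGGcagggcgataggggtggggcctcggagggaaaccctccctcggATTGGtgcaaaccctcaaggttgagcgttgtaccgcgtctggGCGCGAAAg
Chek1 (chr9:36726609-36726638, minus strand): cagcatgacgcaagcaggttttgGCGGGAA

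An E2F word of 8 letters was found in 2 of the 3 windows. In Dtl it lay directly before the transcript start, from base -8 to base -1, with a CCAAT from base -31 to base -27. In Clspn it lay after the start, from base 22 to base 29 on the opposite strand, with 2 copies of CCAAT, also on the opposite strand, at bases -69 to -65 and -21 to -17. Chek1 had the word of 7 letters at bases 44 to 50, the last of its window, so that all 3 windows held the shorter form. The base that decides whether this match has the 8 letters lies outside the Chek1 window. None of the 3 windows held a CHR word, a GC box (GGGCGG), the TATA box word TATAAA or the E-box word that binds MYC, CACGTG. The 8-letter E2F word was present in 13.1% of the 350 windows of genes the authors list as lower, in 1.45% of the 138 windows of genes they list as higher and in 2.26% of all 32851 promoter windows. Of the 31 windows of other genes of these pathways that the authors list, 35.5% held it. The 7-letter form was present in 34.9% of the windows of genes listed as lower, in 6.52% of those listed as higher and in 9.57% of all windows. CCAAT was present in 46.6% of the windows of genes listed as lower, in 42.0% of those listed as higher and in 37.4% of all windows. Words absent from the 3 promoters also differed in share. The GC box was present in 61.4% of the windows of genes listed as lower, in 48.6% of those listed as higher and in 35.7% of all windows. The E-box word was present in 14.3% of the windows of genes listed as lower, in 10.1% of those listed as higher and in 7.15% of all windows. A CHR word was present in 77 of the 350 windows of genes listed as lower, in 29 of the 138 of those listed as higher and in 27.6% of all windows. The TATA box word was present in 7.43% of the windows of genes listed as lower, in 12.3% of those listed as higher and in 13.6% of all windows. Among the 31 windows of other pathway genes, the 7-letter form was present in 61.3%, CCAAT in 67.7% and the GC box in 64.5%. A CHR word was present in 38.7% of them, and the E-box word and the TATA box word in 3.23% each. The pathway genes and the 3 genes with a printed promoter are themselves listed as lower, so these sets overlap. Windows of genes listed as lower were richer in G and C (median 60.7%, against 57.2% for genes listed as higher and 52.7% for all windows), and the part of base composition in these shares was not tested. A match describes the sequence only.

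Values are the authors' normalized log2 expression, so a step of 1 is a 2-fold difference, and levels are not compared between genes because each probeset has its own response. Sizes of differences set beside each other for different genes carry the same limit. The Cd38 transcript, which follows the sort, stood at 12.45 ± 0.15 in CD38high and at 10.46 ± 0.57 in CD38low cells (SD, n = 4 each). Array medians lay between 6.92 and 7.10, and the number of arrays limits the precision. All CD38high values of Gmnn (6.04 to 6.45) and of Dscc1 (5.48 to 6.19) lay below these medians. The part of such low levels in the size of their differences was not tested. The median log2 difference of all probesets was 0.04. In sorted bulk cells, fewer cells that express a gene and less RNA per cell cannot be told apart.

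Tipin, on chromosome 9, had the largest difference of the 6. It was at 7.70, 8.22, 8.51 and 8.09 in CD38high cells of mouse 1, mouse 2, mouse 3 and the pool, against 9.79, 10.11, 10.21 and 9.92 in their CD38low cells. The mean was 8.13 ± 0.33 in CD38high and 10.01 ± 0.19 in CD38low cells (SD, n = 4 each), a log2 difference of -1.88. All 4 CD38high values lay below all 4 CD38low values, with 1.28 between the closest arrays. Mouse 1 was the lowest and mouse 3 the highest in both fractions. Of all probesets, 18 (0.0771%) had a larger difference towards CD38low cells, against 395 (1.69%) for Gmnn, the smallest difference of the 6. This rank comes from the same difference that put these genes on the authors' list.

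Clspn, on chromosome 4, stood at 7.13, 7.68, 7.33 and 7.54 in CD38high cells of mouse 1, mouse 2, mouse 3 and the pool, against 8.67, 9.10, 8.62 and 8.78 in CD38low cells. Its means were 7.42 ± 0.24 and 8.79 ± 0.22 (SD, n = 4 each) in CD38high and CD38low cells, a 2.60-fold difference. Mouse 2 was highest in both fractions. The difference of this mediator varied least among the 6, between -1.54 in mouse 1 and -1.25 in the pool.

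Chek1, on chromosome 9, stood at 7.22, 7.94, 8.05 and 7.77 in CD38high cells of mouse 1, mouse 2, mouse 3 and the pool, against 9.49, 9.76, 9.42 and 9.17 in CD38low cells. The mean of this kinase gene was 7.75 ± 0.37 in CD38high and 9.46 ± 0.24 in CD38low cells (SD, n = 4 each), a 3.29-fold difference. The fractions did not overlap and were 1.12 apart at the closest arrays. The difference was uneven across pairs: -2.27 in mouse 1, where the CD38high array was the lowest of its fraction, -1.81 in mouse 2, and -1.37 and -1.41 in mouse 3 and the pool.

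Gmnn, on chromosome 13, was the member nearest to the 2-fold limit of the authors' list. The values of geminin's transcript were 6.04, 6.40, 6.45 and 6.14 in CD38high cells of mouse 1, mouse 2, mouse 3 and the pool, against 7.06, 7.46, 7.33 and 7.55 in CD38low cells. Means were 6.26 ± 0.20 in CD38high and 7.35 ± 0.21 in CD38low cells (SD, n = 4 each), a log2 difference of -1.09. The pool, which had the highest CD38low value, had the largest difference (-1.41), and mouse 3 had the smallest (-0.88), the 1 pair difference of 24 under 2-fold. The smallest difference on the lower side of the authors' list was -1.0001, and the nearest probeset under 2-fold, which has no name here, was at -0.9998.

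Dtl, on chromosome 1, stood at 8.42, 8.81, 8.72 and 8.84 in CD38high cells of mouse 1, mouse 2, mouse 3 and the pool, against 10.48, 10.86, 10.13 and 10.13 in CD38low cells. Its mean was 8.70 ± 0.19 in CD38high and 10.40 ± 0.35 in CD38low cells (SD, n = 4 each), a 3.25-fold difference. The CD38high arrays lay close together, while the CD38low arrays of mice 1 and 2 stood above those of mouse 3 and the pool. The pair differences followed this split, at -2.06 and -2.05 in mice 1 and 2 and at -1.41 and -1.28 in mouse 3 and the pool.

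Dscc1, on chromosome 15, stood at 5.81, 6.19, 5.48 and 5.82 in CD38high cells of mouse 1, mouse 2, mouse 3 and the pool, against 7.04, 7.68, 6.53 and 7.14 in CD38low cells. This clamp loader gene had the widest spread among CD38low arrays, with a mean of 5.83 ± 0.29 in CD38high and 7.10 ± 0.47 in CD38low cells (SD, n = 4 each), a 2.41-fold difference. The fractions came within 0.34 of each other, between the CD38high array of mouse 2 and the CD38low array of mouse 3. Mouse 2 was highest and mouse 3 lowest in both fractions, so that the pair differences stayed between -1.48 and -1.05. Without the CD38low array of mouse 2 the log2 difference was -1.08, and without that of mouse 3 it was -1.46.

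**Figure D1:**
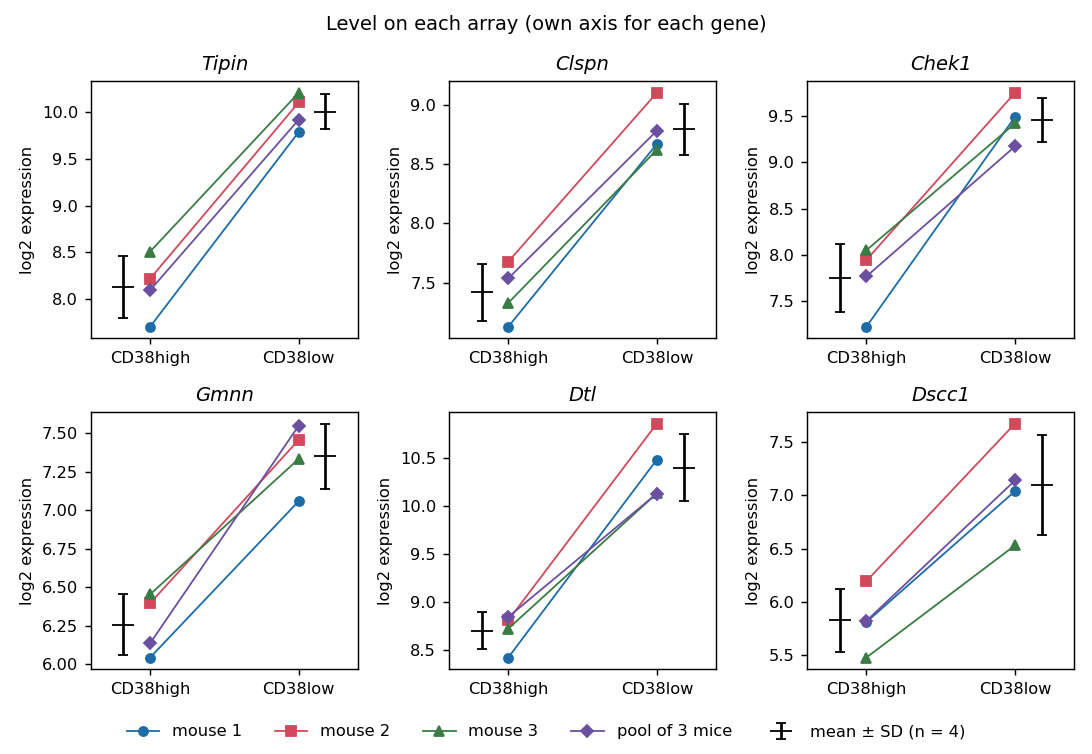
Log2 expression of each gene on each array, with its own axis for each gene, CD38high on the left and CD38low on the right of each panel. Lines join the 2 arrays of a pair, and black bars give the mean and SD of 4 arrays. In every panel all 4 CD38high values lie below all 4 CD38low values, with the narrowest gap, 0.34, in Dscc1.

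For 6 of 6 genes all 4 CD38high arrays lay below all 4 CD38low arrays, a pattern that 9.37% of all probesets showed. In the limma fit over all probesets without a block, 6 of 6 were called lower at an adjusted p under 0.05, where 6.88% of all probesets were. With mouse or pool as a replicate block 6 of 6 were called lower too, where 9.87% of all probesets were. As the authors chose these genes on this contrast, nothing can be read from those counts. Dscc1 was the one whose call depended on single samples in the fit without a block. There it was not called when both arrays of mouse 1 were left out (log2 difference -1.29), nor both arrays of the pool (-1.26), nor the CD38high array of mouse 1 (-1.27). With the block, 6 of 6 were called lower whichever pair was left out, where 1199 to 1597 of all 23332 probesets were. That alternative was chosen after seeing the data.

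**Figure D2:**
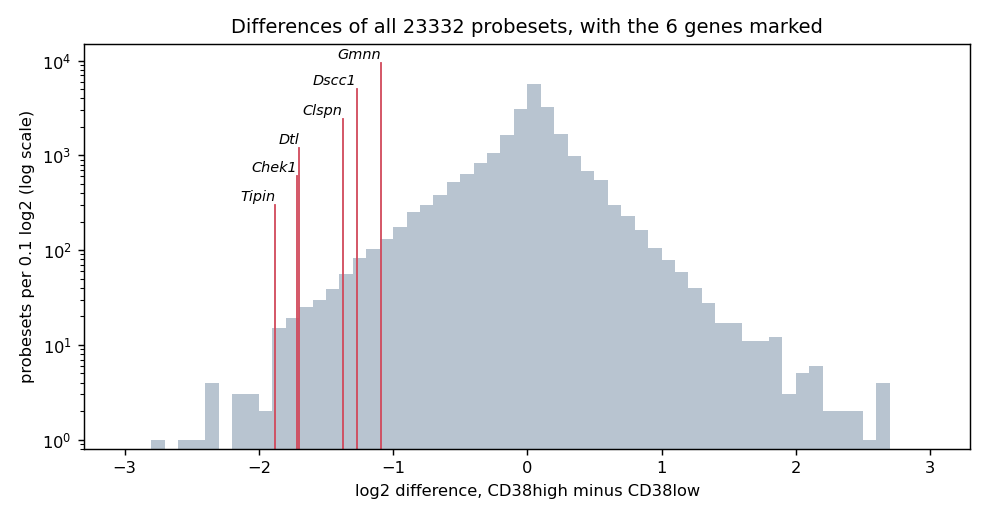
Number of probesets, on a log scale, by log2 difference (CD38high minus CD38low) in steps of 0.1, with red lines at the 6 genes. The 6 lines stand between -1.88 (Tipin) and -1.09 (Gmnn), in the lower tail, where the list they were taken from begins at a 2-fold difference.

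Across the 6 genes all 24 pair differences were below 0. Their median was -1.80 in mouse 1, -1.65 in mouse 2, -1.33 in mouse 3 and -1.36 in the pool. Mouse 1 had the largest difference in 4 genes (Tipin, Clspn, Chek1 and Dtl), mouse 2 in Dscc1 and the pool in Gmnn. Mouse 3 had the smallest in Tipin, Chek1, Gmnn and Dscc1, and the pool in Clspn and Dtl. The 374 probesets that the authors list as lower had medians of -1.49, -1.22, -1.20 and -1.19 in mouse 1, mouse 2, mouse 3 and the pool, so mouse 1 also had the largest median difference there.

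**Figure D3:**
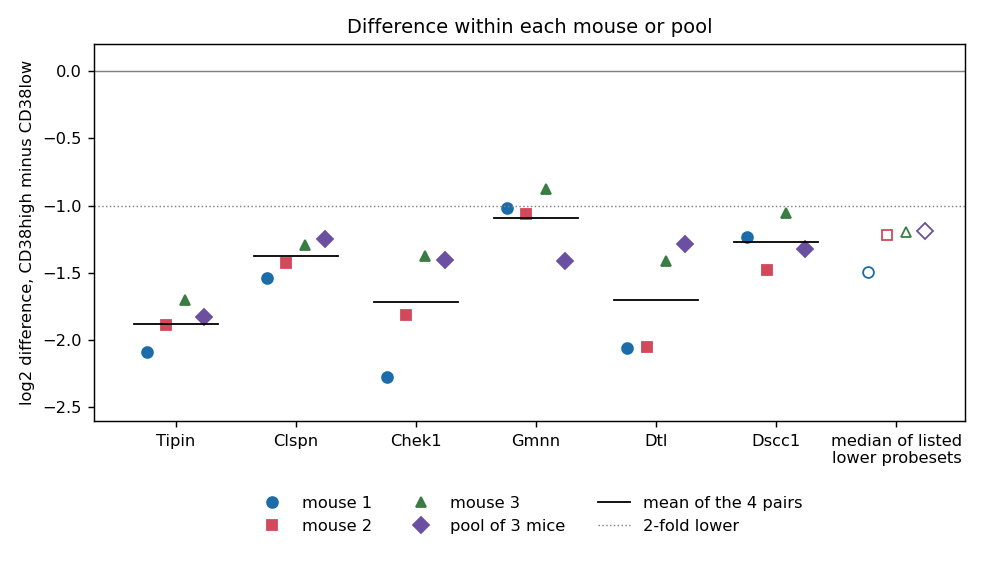
Log2 difference, CD38high minus CD38low, within each mouse or pool for the 6 genes (filled symbols, with the mean of the 4 pairs as a line) and the median over the 374 probesets listed as lower (open symbols). The dotted line marks 2-fold. The Chek1 and Dtl values spread from -2.27 to -1.28, and 1 value, that of Gmnn in mouse 3, lies above the dotted line.

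Among CD38high arrays mouse 1 was the lowest for 5 of 6 genes, Dscc1 being the exception, and its mean deviation from the fraction mean over the 6 genes was -0.29. The same array was the lowest for 51.1% of the 374 probesets listed as lower. Among CD38low arrays mouse 2 was the highest for 4 of 6 genes, Clspn, Chek1, Dtl and Dscc1, with a mean deviation of 0.31. No such array stood out over the listed lower probesets, of which 28.1%, 33.2% and 34.0% were highest in CD38low cells of mouse 1, mouse 2 and mouse 3. The CD38low pool was the lowest for 187 of those 374 probesets. No CD38low array was the lowest for most of the 6 genes: mouse 1, mouse 3 and the pool were each the lowest for 2.

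The named genes of the same pathways were lower as well. Of 93 other genes on lists for the checkpoint, licensing and firing of origins, the CUL4 ligase with PCNA, and clamp loading with cohesion, 34 could be named, and 34 of 34 were called lower and 0 higher in the limma fit without a block, where 6.88% of all probesets were called lower. Names come only from the authors' list of changed probesets, of which 374 of 498 are lower, so this count was largely fixed by the list and is not independent evidence of direction, and the other genes of these lists have no value here. The median log2 difference of the 34 was -1.41 and the largest -2.02 (Pole2), beside -1.54 for the 6 genes, -1.24 for all probesets listed as lower and 0.04 for all probesets.

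Of 29 checkpoint genes, 9 were named and 9 were lower. Timeless, the partner of Tipin, stood at 7.30 ± 0.18 in CD38high and 8.31 ± 0.09 in CD38low cells (SD, n = 4 each), a 2.01-fold difference beside the 3.67-fold of Tipin. Rpa2, Rpa3 and Rpa1 encode all 3 subunits of the protein that coats single-stranded DNA at stalled forks, and were 3.13-fold, 3.05-fold and 2.73-fold lower. Wdhd1, which joins the helicase to polymerase alpha, was 3.11-fold lower. Wee1, a kinase that holds back the cyclin-dependent kinases below CHK1, was 2.10-fold lower.

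Of 28 genes of licensing and firing, 19 were named and 19 were lower, from Cdc45 (2.01-fold) to Mcm2 (4.03-fold). Cdt1, which both geminin and Dtl restrain, stood at 8.77 ± 0.24 in CD38high and 10.39 ± 0.34 in CD38low cells (SD, n = 4 each), a 3.08-fold difference. The Cdt1 difference of -1.62 thus lay between those of Gmnn (-1.09) and Dtl (-1.70), so the transcripts of the loader and of both proteins that restrain it were lower in the same fraction. Of 14 genes for the CUL4 ligase and PCNA, 3 were named and 3 were lower. Besides Cdt1 these were Skp2, a ubiquitin ligase subunit that also targets Cdt1 (2.41-fold), and Pclaf, a PCNA-binding factor (2.01-fold). Fbxo5, an inhibitor of the ligase that degrades geminin, was 2.54-fold lower.

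Of 25 genes for clamp loading and cohesion, 4 were named and 4 were lower. Rfc3 encodes a subunit that the usual and the Dscc1-containing clamp loader share. It stood at 7.16 ± 0.43 in CD38high and 8.97 ± 0.39 in CD38low cells (SD, n = 4 each), a 3.51-fold difference beside the 2.41-fold of Dscc1. Pole2 and Pole, subunits of the polymerase that the Dscc1 complex binds, were 4.04-fold and 2.63-fold lower, and Cdca5, which holds cohesin on chromatin, was 2.14-fold lower.

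**Figure D4:**
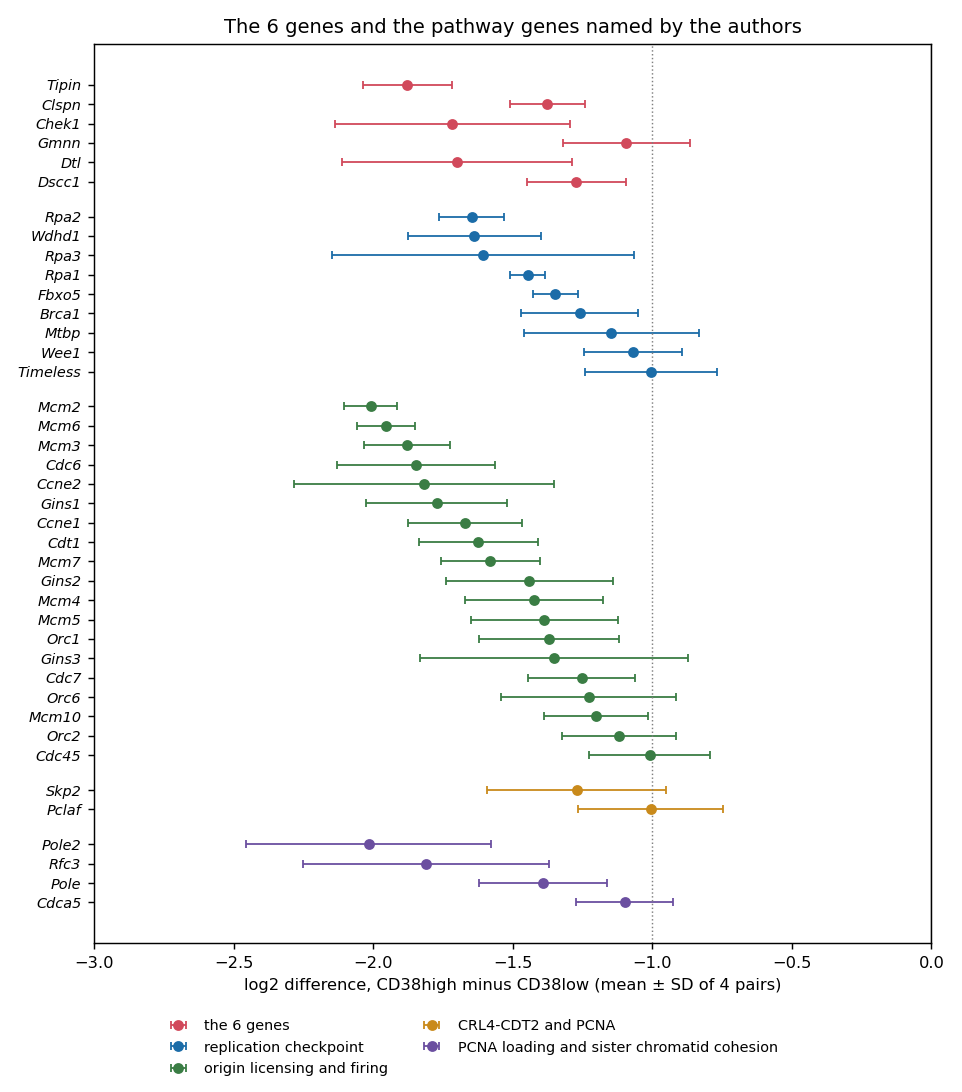
Log2 difference, CD38high minus CD38low, of the 6 genes and of the 34 named pathway genes, as the mean and SD of 4 pairs, with a dotted line at 2-fold and a gene of several lists shown once. The 6 genes, at -1.09 to -1.88, lie within the range of the pathway genes, from 2.01-fold (Timeless) to 4.04-fold (Pole2) lower.

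Likeness of profile was measured as the root mean square distance over the 8 arrays between log2 values centred on each gene's own mean, against the other 478 named probesets. The nearest were Mcm3 and Uhrf1 for Tipin (0.104 and 0.106), Mcm4 and Cdc7 for Clspn (0.102 and 0.134), and Prim1 and Far2 for Chek1 (0.116 and 0.138). For Dtl they were Cdc6 and Mybl2 (0.112 and 0.140), for Gmnn Sptssa and Scyl3 (0.114 and 0.119), and for Dscc1 Sdad1 and Brca2 (0.180 and 0.189). The median distance to all named probesets was 0.327 to 0.468. For each of the 6 genes the nearest other member was farther away than both of its nearest genes, and the closest members were Chek1 and Dtl (0.176). The 478 candidates far outnumber the members, which favours this order. Counted among all other named probesets, the nearest member ranked 6 for Chek1 and for Dtl, 9 for Dscc1, 14 for Tipin, 55 for Clspn and 101 for Gmnn. The measure includes the difference between fractions on which all these genes were listed.

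Of the named markers of maturation and of other cells, some were lower in CD38high cells like the 6 genes, and others were higher. Of 12 primary granule genes, made by dividing granulocyte precursors, 5 were named and all 5 were lower, and their mean level was 10.80 to 11.19 on CD38high and 13.00 to 13.12 on CD38low arrays. Of 20 mature neutrophil genes, 6 were named and all 6 were higher, with a mean level of 11.63 to 11.93 on CD38high and 10.16 to 10.63 on CD38low arrays. As names come only from the list of changed probesets (124 higher and 374 lower of 498), each named marker had to differ. The other genes of these lists have no value here. In the limma fit without a block, 1606 of all 23332 probesets were called lower and 873 higher. The lists for B cells, T cells, NK cells and monocytes, macrophages and dendritic cells had 1 named gene each. Cd79a (7.99 to 9.75 on CD38high and 6.45 to 7.33 on CD38low arrays) and Ccr7 (7.58 to 8.08 on CD38high and 6.30 to 6.95 on CD38low arrays) were higher. Nkg7 (8.86 to 10.29 on CD38high and 11.61 to 12.50 on CD38low arrays) and Mgl2 (5.66 to 6.34 on CD38high and 8.22 to 8.89 on CD38low arrays) were lower. No plasma cell (0 of 6) or erythroid precursor gene (0 of 10) could be named. Of the sort antigens Itgam, Ly6g, Ly6c1 and Ly6c2, which would define the labelled cells, none could be located by name. The part of these cell types in the values of the 6 genes was not tested.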

How the data were processed

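Per the labels' protocols, RNA of the sorted fractions was amplified with the Ambion kit and measured on Affymetrix arrays. The authors deposited log2 values for 23332 probesets and a table of 498 probesets selected as changed. Affymetrix Power Tools, RMA, PLIER and build mm9 are named in the submitters' processing notes, with no role stated for each. The log2 scale was read from the range of the values, 3.60 to 14.10.

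The value table holds no gene names. All 498 listed rows matched exactly 1 probeset in their 8 values (5 decimals), which named 484 probesets of 482 genes. Symbols were updated by RefSeq accession (476 rows), symbol (3) or synonym (4), and 1 was kept.

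The 6 genes and all lists were chosen with earlier results of these data known. The genes named are the 6, Cd38, the nearest profiles of each and up to 4 members of each list with the largest differences. Timeless, Wee1, Fbxo5, Cdt1, Cdc45, Tyms and E2f1 were added after their values were seen. CD38high was compared with CD38low in limma 3.58.1 (R 4.3.3), without a block (an unpaired test is stated in the design text) and with Benjamini-Hochberg adjustment over all probesets. The fit was tested on simulated data. Deviations from fraction means correlated at 0.345 to 0.675 between arrays of 1 pair and at -0.577 to 0.0998 across pairs. The deviations within a fraction cancel out, so positive correlations within pairs lower those across pairs, and the centring widens this contrast. Both fractions come from the same animals, so the replicate block is the paired fit. P-values cover the spread between these samples. Alternatives were the block, scaling, filters, other variance settings, the methods' t-test and leaving out arrays or pairs. Protein features were not analysed here. The rest was done in Python 3.11.15 (pandas 2.3.3, numpy 2.4.6, matplotlib 3.10.9).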

Additional observations from a re-analysis of the deposited data

How the results depend on the processing

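All 6 genes stayed lower in CD38high cells under every alternative run on them: quantile or median scaling, the replicate block (the same differences, since pairs are complete) and leaving out each array or pair. The direction could not change when arrays or pairs were left out, because in each gene all 4 CD38high values lay below all 4 CD38low values. Only the size of the difference could vary. Leaving out arrays or pairs gave -2.003 to -1.73 for Tipin, -1.46 to -1.27 for Clspn, -1.83 to -1.53 for Chek1, -1.19 to -0.99 for Gmnn, -1.84 to -1.55 for Dtl and -1.46 to -1.08 for Dscc1, and -1.62 to -1.41 for their median. The count of differing probesets (2479) was 3929 with the replicate block, 3840 with a random replicate block, and 540 to 2436 without single arrays or pairs, with 427 to 1483 lower (1606 with all arrays). Scaling, the filter on dim probesets and a trended variance gave 2117 to 2567. With the block and a pair left out, an alternative chosen after seeing the data, it was 1942 to 2520. The methods' t-test gave 351 at its own threshold and 1598 after Benjamini-Hochberg; 5 of the 6 genes were in each count, and Dscc1 was in neither. In the limma fits without a block 5 to 6 of the 6 were called, and with a block 6 of 6, also with a pair left out. Centred on each fraction instead of on all arrays, 2 of the 12 nearest profiles were the same genes. Precision is limited by 4 arrays per fraction, and signal over background was not analysed here.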

Other observations

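Of 22 further proliferation genes, 8 are on the authors' list of changed probesets, the source of all names, and 8 of 8 were lower in CD38high cells. As 374 of the 498 listed probesets are lower, this count was largely fixed by the list. Uhrf1, which maintains DNA methylation behind the fork, was 3.52-fold lower, and the thymidylate genes Tk1 and Tyms were 2.85-fold lower each. E2f1, an activator of S phase genes and a factor of the family whose word is printed in the Dtl and Clspn promoters, stood at 8.91 ± 0.30 in CD38high and 9.92 ± 0.11 in CD38low cells (SD, n = 4 each), a 2.01-fold difference. Its relation to the 6 genes was not tested.

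With each fraction centred on its own mean, the profile nearest to Dtl was that of Cdc6 (root mean square distance 0.0838 log2). The nearest were Mrpl35 for Chek1 (0.0871), Mfsd13a for Clspn (0.0834), Ptgr1 for Tipin (0.0849), Amer2 for Gmnn (0.0882) and Antxr2 for Dscc1 (0.145). Amer2 and Antxr2 were higher in CD38high cells, with log2 differences of 1.18 and 1.26. No array stood apart from its fraction by Dixon's test for any of the 6 genes, for Cd38 or for the array medians, 16 groups of 4 arrays in all.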
